A study of Homo sapiens with 6 samples.

Results

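The genes described here encode the lysosome, the acidic compartment in which macrophages break down what they engulf. They were chosen by name: 28 genes of lysosomal membrane proteins, cathepsins, other hydrolases, lipid carriers and the transcription factors TFEB and TFE3, plus every gene whose name begins with ATP6V0, ATP6V1 or ATP6AP. All 28 were listed, and the name rule added 27 more, so 55 of 19976 listed genes are members. Of these, 50 passed the filter on low counts and were tested. Of the 27, ATP6V1FNB is named in the deposited table as a neighbour of ATP6V1F and ATP6V1G2-DDX39B as a readthrough, so neither is counted below as a pump subunit.

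The cells were THP-1, a monocytic line from a human leukaemia, and 48 h with PMA at 50 ng/ml, a phorbol ester, had turned them into macrophage-like cells. They received 200 nM siRNA against the circular RNA hsa_circ_0004287 (circ siRNA, 3 libraries) or 200 nM control siRNA (3 libraries) for 48 h. Both groups were then given 200 ng/ml of the TLR4 ligand lipopolysaccharide (LPS) for 3 h, so neither group shows the unstimulated state. All 6 libraries come from 1 cell line. Nothing in the labels ties the numbered libraries to cultures of their own. The p-values therefore reflect spread among these libraries alone, and that spread may be technical. The circular RNA was not analysed here, so its loss in the circ siRNA libraries was not checked.

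Most lysosomal enzymes work best at acid pH, which is set by the V-ATPase, a proton pump in the lysosomal membrane. Its V1 sector in the cytosol burns ATP, and its V0 sector in the membrane carries the protons. Cathepsins are the main lysosomal proteases, and in macrophages they also process antigen and degrade matrix. TFEB and TFE3 are helix-loop-helix factors that bind the CLEAR element, an E-box found near the start of many lysosomal genes.

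Library totals ran from 14793902 to 16736972 counts with circ siRNA and from 15874084 to 16588112 with control siRNA. The first principal component, with 53.4% of the variance, did not follow the groups. It set circ library 3 (-38.4) and control library 1 (-23.2) apart from circ libraries 1 and 2 (-1.51 and 11.5) and control libraries 2 and 3 (30.4 and 21.3). Results on the members are therefore also given without these 2 libraries where a call changed. The second component, with 16.9% of the variance, did separate the groups. Its scores were 18.5, 18.6 and -2.38 with circ siRNA, all above the -13.2, -13.6 and -7.92 with control siRNA. Without circ library 3 and control library 1, the groups that remain lie apart along the first component and along the second. In that fit the siRNA therefore cannot be told apart from either component, which holds for each such call below. There edgeR called 14.8% of all genes. Of 14 macrophage markers 13 were tested, with a summed level of 3252 to 3973 CPM (the library total scaled to 1e6 counts) with circ siRNA and 3768 to 4032 CPM with control siRNA. On TMM-scaled library totals, the scale of every CPM value of a single gene below, CSF1R, the receptor for the macrophage growth factor, had 651 to 874 CPM with circ siRNA and 821 to 955 CPM with control siRNA. MRC1, a mannose receptor, had at most 0.245 CPM with circ siRNA and 0.389 CPM with control siRNA on the same scale. Markers of other cell types, summed like the macrophage markers, had T and NK cell genes at 4.66 to 5.74 CPM in sum with circ siRNA and 4.04 to 7.51 CPM with control siRNA, B cell markers at 1.91 to 3.01 and 2.96 to 3.32 CPM, and epithelial markers at 0.119 to 0.676 and 0.181 to 0.693 CPM. Fibroblast markers summed to 24.7 to 27.9 CPM with circ siRNA and 24.1 to 30 CPM with control siRNA. Of these, only COL1A1 and PDGFRA were tested, and COL1A2, COL3A1, DCN and LUM had at most 7 counts in any library. Neutrophil and promyelocyte markers summed to 90.5 to 110 and 61.6 to 96.9 CPM.

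Cathepsin L was the most abundant member. On the deposited FPKM scale, which divides counts by gene length and library total and so allows genes to be compared, CTSL had a mean of 1506 FPKM over the 6 libraries and ranked 21st of all listed genes. PSAP, the precursor of the saposins that help to degrade sphingolipids, had 683 FPKM, and CD63, a tetraspanin of late endosomes and lysosomes, had 492 FPKM. CTSZ, a carboxypeptidase, had 467 FPKM, GRN, the precursor of the granulins, had 417 FPKM, and CTSB, an abundant endopeptidase, had 311 FPKM with circ siRNA and 263 FPKM with control siRNA. All members together took 1.61% to 2.01% of the counts with circ siRNA and 1.62% to 1.93% with control siRNA. The cathepsins took 0.909%, 0.937% and 0.661% in circ libraries 1 to 3, and 0.705%, 0.864% and 0.881% in control libraries 1 to 3. The genes named ATP6V0, ATP6V1 or ATP6AP took 0.339%, 0.344% and 0.278% in the circ libraries and 0.308%, 0.356% and 0.350% in the control libraries. All 3 shares were lowest in circ library 3, with control library 1 next, and the groups overlapped.

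**Figure D1:**
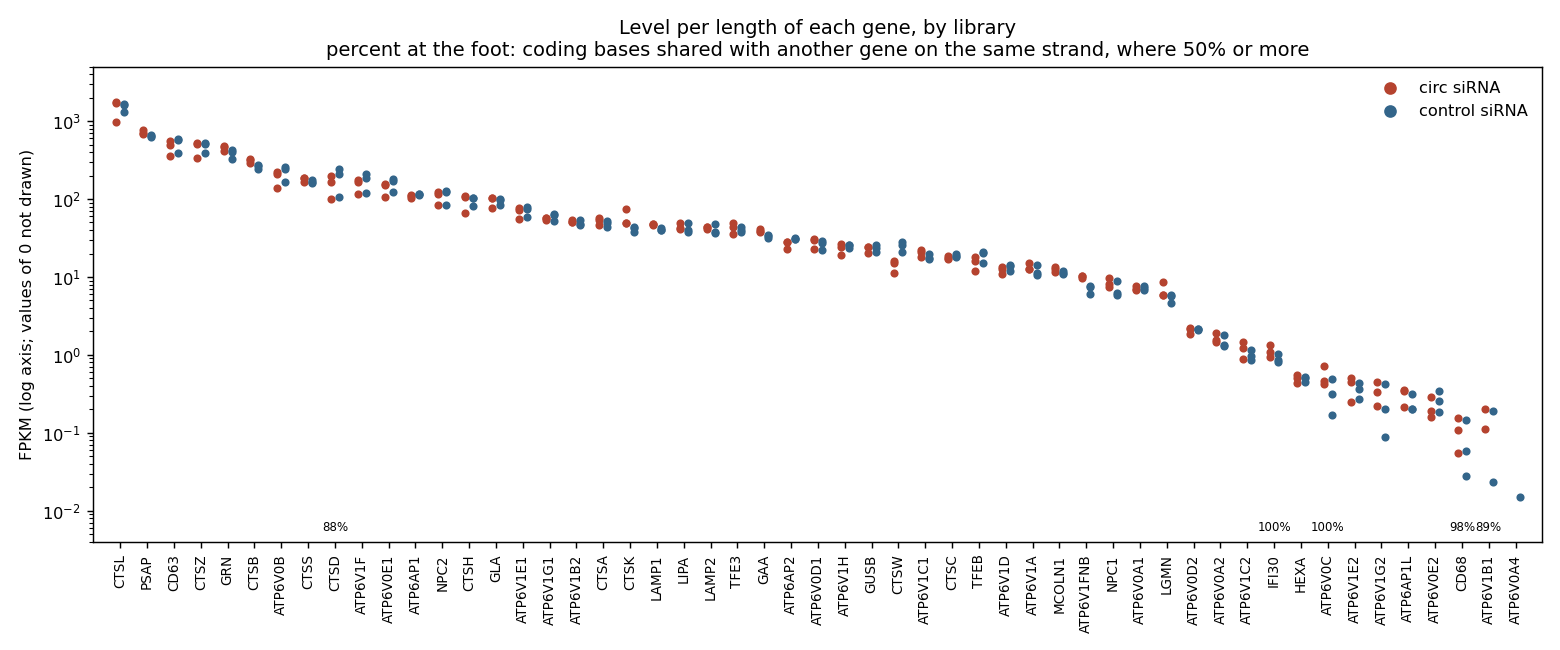
FPKM of each listed gene in each library on a log axis, ordered by mean level, with circ siRNA points left of control siRNA points and the share of coding bases that another gene's exons cover on the same strand at the foot where it is 50% or more. CTSL stands at the top with a mean of 1506 FPKM, and CD68 lies near the bottom at 0.0923 FPKM with 97.6% of its coding bases shared. ATP6V1G3 and ATP6V1G2-DDX39B had no counts and are not drawn.

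Some members that define macrophages or the pump were listed near 0. CD68, a glycoprotein used as a macrophage marker, had 2, 4 and 5 counts with circ siRNA and 1, 2 and 5 counts with control siRNA, and it was not tested. ATP6V0C, which encodes the proteolipid ring subunit through which the protons pass, had 11, 10 and 15 counts with circ siRNA and 4, 11 and 7 with control siRNA. IFI30, the thiol reductase of antigen processing, had 52, 43 and 33 counts with circ siRNA and 40, 32 and 30 with control siRNA. HEXA, the alpha subunit of beta-hexosaminidase, had 106, 115 and 81 counts with circ siRNA and 95, 101 and 103 with control siRNA. In GENCODE 29 (GRCh38), the exons of other genes on the same strand cover 97.6% of the coding bases of CD68, 100% of those of ATP6V0C and IFI30, and 33.9% of those of HEXA. Such cover of 90% or more was found for 4 of 55 members (7.27%) and for 870 of 19914 listed genes matched (4.37%). Among tested genes it was found for 2 of 50 members and for 1.21% of all genes. The largest partners of ATP6V0C and IFI30, AC093525.2 and AC007192.1, had 0 counts in all 6 libraries. How the submitters assigned reads that fit 2 genes is not given in the sources used here, and its part in these levels was not tested. CTSD, with such cover over 87.8% of its coding bases and so under 90%, had a mean of 170 FPKM. Over all exonic bases, cover on the same strand was 41.7% for CTSD, 81.7% for CD68 and 72.1% for ATP6V0C. It was 40.2% for IFI30 and 4.89% for HEXA.

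Sequence matches to the CLEAR core were found in part of the members' promoters. Promoters, taken as 250 bases before to 50 bases after the start in RefSeq (GRCh38.p14), were found for 38 of 55 members. The E-box CACGTG, which reads the same on both strands, was present in 11 of these 38 (28.9%), against 7.43% of 27305 promoters, 9.95% of those of tested genes and 20.5% of 122 promoters of other lysosomal genes. The longer TCACGTGA, also its own reverse complement and holding CACGTG within it, was present in 6 of 38 (15.8%), against 1.04% of all promoters and 9.02% of those of other lysosomal genes. Those 6 are shown from 90 bases before to 10 bases after the start, to show where the matches lie. They are written 5′ to 3′ on the strand of the gene, with each CACGTG in capitals. Binding of TFEB or TFE3 to these matches was not measured. These 6 genes encode membrane proteins, enzymes and pump subunits. The promoters found for TFEB, TFE3, CTSC, CTSH, CTSL, CTSZ, GRN, LIPA, NPC1 and NPC2 hold no CACGTG. For the other cysteine cathepsins (CTSB, CTSK, CTSS and CTSW) and for PSAP no promoter was found, so these were not examined. LAMP1 is a lysosomal membrane glycoprotein (chr13:113297149-113297248, plus strand), MCOLN1 a calcium channel (chr19:7522534-7522633, plus strand) and GAA the glycogen-degrading alpha-glucosidase (chr17:80101491-80101590, plus strand). CTSA is a carboxypeptidase that protects other enzymes (chr20:45891245-45891344, plus strand), and ATP6V0D1 (chr16:67481148-67481247, minus strand) and ATP6V1G1 (chr9:114587679-114587778, plus strand) are pump subunits.
LAMP1: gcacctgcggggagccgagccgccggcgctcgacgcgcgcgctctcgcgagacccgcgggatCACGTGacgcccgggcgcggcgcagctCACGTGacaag
MCOLN1: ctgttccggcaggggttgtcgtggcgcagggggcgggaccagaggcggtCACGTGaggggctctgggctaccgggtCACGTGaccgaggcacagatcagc
GAA: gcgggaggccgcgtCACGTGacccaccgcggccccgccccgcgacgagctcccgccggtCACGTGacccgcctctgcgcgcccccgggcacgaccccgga
CTSA: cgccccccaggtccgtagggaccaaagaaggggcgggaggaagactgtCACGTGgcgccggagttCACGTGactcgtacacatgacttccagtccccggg
ATP6V0D1: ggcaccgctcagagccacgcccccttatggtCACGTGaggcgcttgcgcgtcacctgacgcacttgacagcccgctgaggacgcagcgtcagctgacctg
ATP6V1G1: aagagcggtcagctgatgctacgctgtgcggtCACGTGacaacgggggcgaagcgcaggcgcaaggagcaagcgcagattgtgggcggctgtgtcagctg
LAMP1, MCOLN1, GAA and CTSA hold 2 copies of CACGTG in these 100 bases, and the 2 pump genes hold 1. The median log2 fold change was 0.07 over the 11 tested members with CACGTG in the promoter and -0.06 over the 22 tested members whose promoter has none. Values ran from -0.31 to 0.31 in the former (6 positive) and from -0.33 to 0.68 in the latter (8 positive). Over all 991 tested genes with CACGTG the median was -0.01. The difference between these medians was not tested.

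In the fit of all 6 libraries, the lysosomal genes as a whole stood close to all other genes in the comparison of circ siRNA with control siRNA. No member passed the threshold of edgeR's quasi-likelihood test (adjusted p under 0.05 over all 12469 genes tested), with 0 of 50 higher and 0 lower, against 0 genes (0%) higher and 1 (0.00802%) lower over the whole table. DESeq2 called 0 members higher and 1 lower, against 60 genes (0.481%) and 23 genes (0.184%), or 0.666% in either direction, and limma-voom called 0 members and 0 genes (0%). An unadjusted p under 0.05 in edgeR was found for 2 members higher and 1 lower (6% together), against 3.77% and 2.68% of all genes (6.45% together). Without control library 1 the count of lower members was 2 (9.99% of all genes), and without control library 3 the count of higher members was 1 (2.13% of all genes). On TMM-scaled CPM the groups did not overlap for 5 members that were higher and 2 that were lower (14%), against 6.64% and 5.87% of all genes (12.5% together). Groups overlap less often with fewer libraries. Without circ library 3 the groups did not overlap for 14 of 50 members higher and 2 of 50 lower, against 12.8% and 12% of all genes. There the share of members was above that of all genes for higher values and below it for lower values. Without control library 1 the counts were 11 of 50 and 14 of 50, against 22% and 23.2% of all genes. The median log2 fold change, circ siRNA minus control siRNA, was 0.04 over the tested members and -0.01 over all genes tested. With 1 library left out it ran from -0.04 (without control library 1) to 0.10 (without circ library 3). Of all genes tested 41.6% were at or above the median of the members. Log2 fold changes were positive for 26 members (52%) and negative for 24, and positive for 48.8% of all genes.

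Intervals were narrow enough to bound the difference for most members. The 95% interval of the fold change lay within 2-fold in either direction for 44 of 50 members (88%), against 82.1% of all genes, and within 1.5-fold for 28 (56%), against 45.1%. The 6 members whose interval reached beyond 2-fold were CTSW, CTSD, ATP6V0C, ATP6V0E2, ATP6V1G2 and ATP6AP1L. In bulk RNA, fewer cells of a type and less RNA per cell cannot be told apart, and this holds for every value below.

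**Figure D2:**
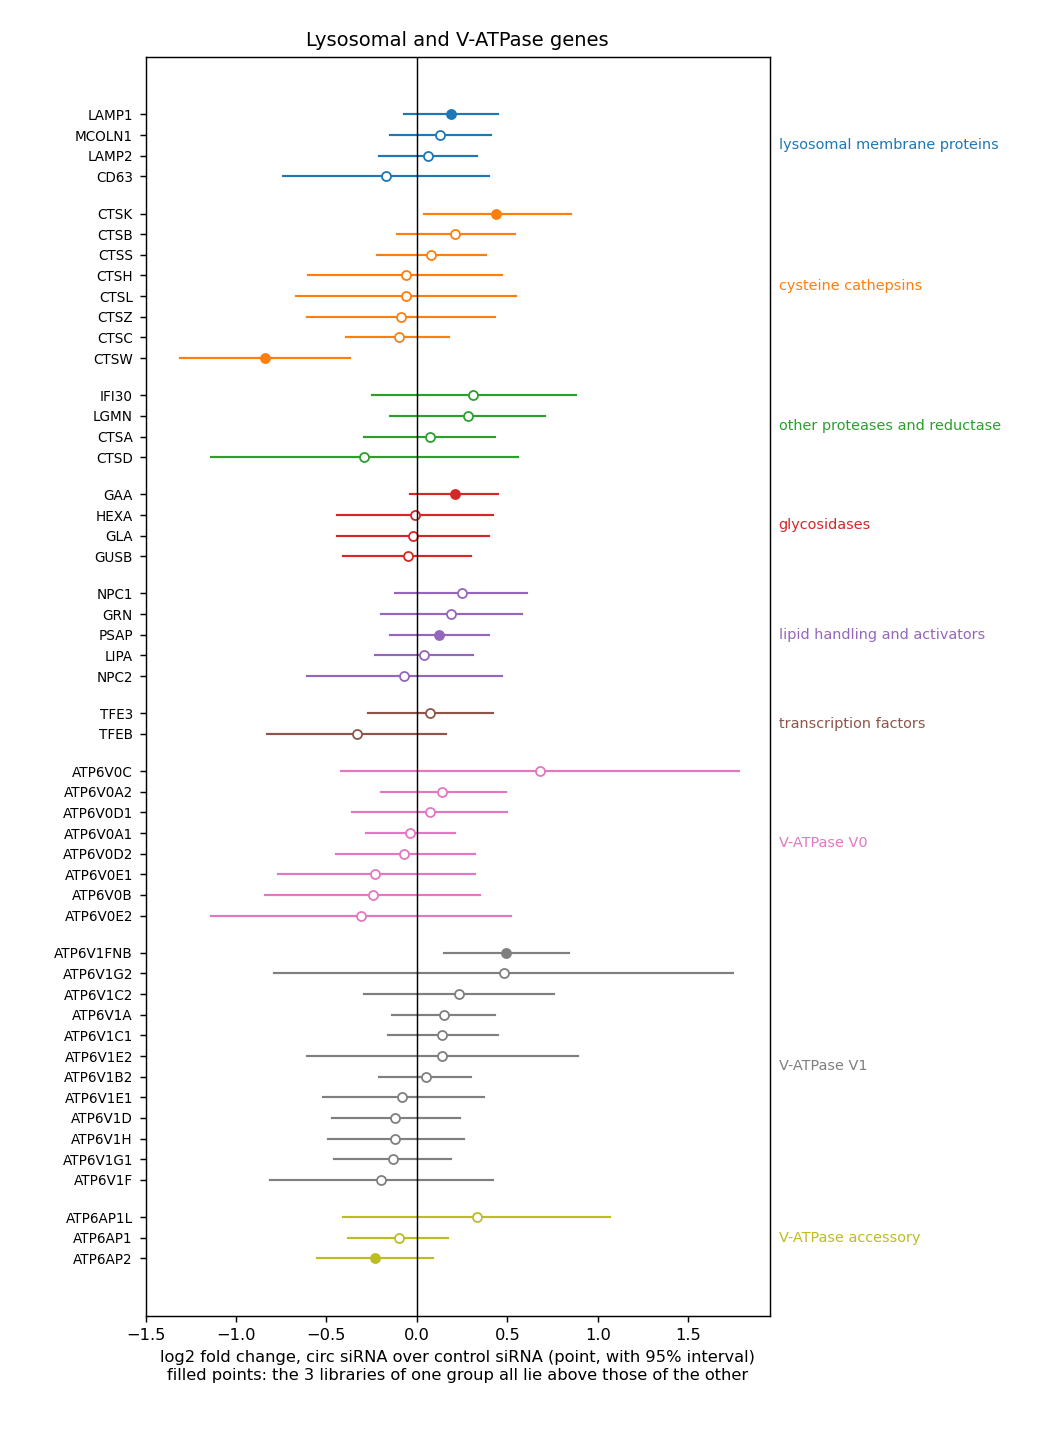
Log2 fold change (circ siRNA over control siRNA) with its 95% interval for the 50 tested genes, by role. CTSW lies lowest at -0.84 with an interval from -1.31 to -0.37, and of the other intervals only those of CTSK and ATP6V1FNB leave out 0.

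Cathepsin W had the lowest log2 fold change of the members. This papain-family protease is known from cytotoxic T and NK cells and sits on chromosome 11, 65879837 to 65883741 (GRCh38, plus strand, ENSG00000172543). CTSW had 27.2, 25.9 and 17.8 CPM with circ siRNA, against 33.7, 45.0 and 48.4 CPM with control siRNA. Every circ library lay below every control library, and circ library 3 was the lowest of all. The means were 23.6 ± 5.11 CPM with circ siRNA and 42.4 ± 7.73 CPM with control siRNA (SD, n = 3 each), and its log2 fold change was -0.84 (SE 0.20, 95% interval -1.31 to -0.37). DESeq2 called it lower (adjusted p = 0.0422), and edgeR did not (adjusted p = 0.443). Without circ library 3 and control library 1, edgeR called it (log2 fold change -0.81, adjusted p = 0.000317). With each library left out in turn, its log2 fold change ran from -0.98 to -0.67 and edgeR did not call it (adjusted p from 0.160 to 1), and over all 16 alternatives adjusted p ran from 0.000317 to 1. Of the 10 T and NK cell markers, CD2 and CD3G had 0 counts in all libraries, CD3D, CD3E, CD8A and KLRD1 had at most 5 counts in any library, and GNLY, a cytotoxic granule gene, had 1.51, 1.66 and 1.22 CPM with circ siRNA and 1.66, 2.56 and 2.59 CPM with control siRNA. NKG7, another granule gene, had 2.47, 2.33 and 2.18 CPM with circ siRNA and 1.15, 3.55 and 2.91 CPM with control siRNA. The granule protease gene GZMB had 1.02, 0.675 and 0.641 CPM with circ siRNA and 0.516, 0.657 and 1.10 CPM with control siRNA (log2 fold change 0.05), and PRF1, the perforin gene, had 7, 14 and 5 counts with circ siRNA and 6, 10 and 8 counts with control siRNA.

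**Figure D3:**
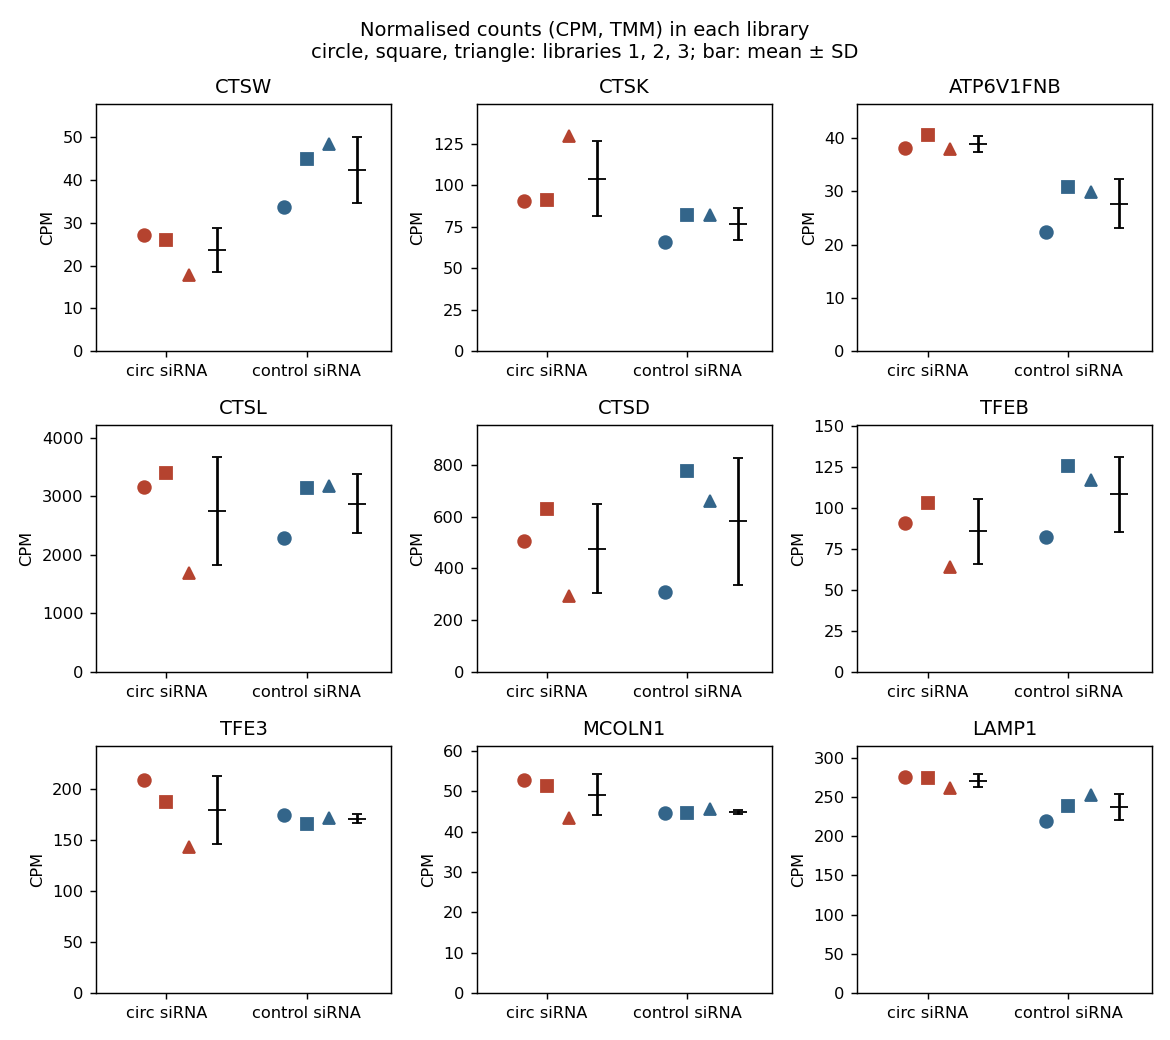
CPM of 9 genes in each library, with circ siRNA on the left and the mean ± SD beside the points of each group (n = 3 each). CTSW is below every control value in all 3 circ libraries, CTSK, ATP6V1FNB and LAMP1 are above, and for CTSL and CTSD circ library 3 and control library 1 (triangle and circle) lie low in their groups.

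Cathepsin K showed the opposite order. This collagen-degrading protease, known from osteoclasts, lies on chromosome 1, 150796208 to 150808260 (minus strand), 30415 bases beyond its neighbour CTSS. CTSK had 90.7, 91.0 and 130 CPM with circ siRNA and 65.6, 81.9 and 82.1 CPM with control siRNA, so all circ values were above all control values. Its log2 fold change was 0.44 (SE 0.18, 95% interval 0.04 to 0.85), with an adjusted p of 0.724 in edgeR and 0.682 in DESeq2. The highest value was in circ library 3, and without that library and control library 1 the log2 fold change was 0.15. CTSS, which cuts the invariant chain of MHC class II, had a log2 fold change of 0.08 (95% interval -0.22 to 0.38).

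The remaining cysteine cathepsins had overlapping groups on the CPM scale. On the FPKM scale, which has no TMM scaling, CTSB did not overlap. It had 322, 319 and 293 FPKM with circ siRNA and 245, 268 and 277 FPKM with control siRNA. CTSL had 3162, 3390 and 1686 CPM with circ siRNA and 2290, 3146 and 3172 CPM with control siRNA, and the lowest values were those of circ library 3 and control library 1. Its log2 fold change was -0.06 (95% interval -0.67 to 0.55). CTSB had 2357, 2395 and 2033 CPM with circ siRNA and 1702, 2059 and 2085 CPM with control siRNA, giving a log2 fold change of 0.21 (95% interval -0.11 to 0.54). CTSZ had 1033, 1108 and 657 CPM with circ siRNA and 769, 1096 and 1108 CPM with control siRNA, and its log2 fold change was -0.09 (95% interval -0.61 to 0.43). CTSC, which activates granule serine proteases, and CTSH, an aminopeptidase, had log2 fold changes of -0.10 and -0.06. Over the 8 cysteine cathepsins the median was -0.06, with 3 positive and 5 negative values, and with 1 library left out it ran from -0.19 (without control library 1) to 0.16 (without circ library 3).

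Cathepsin D, the aspartic protease of the lysosome, spread widely between libraries of 1 group. CTSD had 507, 630 and 292 CPM with circ siRNA and 307, 777 and 660 CPM with control siRNA. Its log2 fold change was -0.29 with a wide interval (SE 0.37, 95% interval -1.14 to 0.56). It was -0.33 without circ library 3 and control library 1, where edgeR called it lower (adjusted p = 0.0450). The value moved with single libraries, to -0.03 without circ library 3, -0.02 without control library 2 and -0.59 without control library 1. LGMN, the asparaginyl endopeptidase that matures cathepsins, had 22.5, 23.2 and 31.5 CPM with circ siRNA and 17.3, 23.8 and 22.5 CPM with control siRNA, and its log2 fold change was 0.28 (95% interval -0.15 to 0.71). Like CTSK, LGMN was highest in circ library 3, in which CTSD and CTSL were lowest. CTSA had 312, 343 and 259 CPM with circ siRNA and 245, 307 and 319 CPM with control siRNA (log2 fold change 0.07), and IFI30, at 2.11 to 3.13 CPM with circ siRNA and 1.94 to 2.29 CPM with control siRNA, had 0.31 (95% interval -0.25 to 0.88).

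Among membrane proteins, LAMP1 had 276, 275 and 261 CPM with circ siRNA and 220, 238 and 253 CPM with control siRNA. The groups did not overlap. LAMP1 differed by 0.19 on the log2 scale (SE 0.11, 95% interval -0.07 to 0.45; edgeR adjusted p = 0.864). LAMP2, its partner in the lysosomal coat and a receptor in chaperone-mediated autophagy, had 244, 236 and 233 CPM with circ siRNA and 254, 214 and 214 CPM with control siRNA, with a log2 fold change of 0.06. CD63 had 1317, 1484 and 885 CPM with circ siRNA and 974, 1640 and 1537 CPM with control siRNA, with its lowest values in circ library 3 and control library 1. MCOLN1, the channel that releases lysosomal calcium, had 52.8, 51.3 and 43.3 CPM with circ siRNA and 44.6, 44.7 and 45.5 CPM with control siRNA, and its log2 fold change was 0.13 (95% interval -0.15 to 0.41).

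Glycosidases and lipid-handling genes had small differences. GAA had 201, 206 and 205 CPM with circ siRNA and 167, 174 and 188 CPM with control siRNA, without overlap. GAA differed by 0.21 on the log2 scale (SE 0.11, 95% interval -0.04 to 0.45; edgeR adjusted p = 0.832). GLA, which removes terminal alpha-galactose, had 235, 241 and 163 CPM with circ siRNA and 181, 242 and 225 CPM with control siRNA (log2 fold change -0.02). GUSB, the beta-glucuronidase, had 93.8, 97.2 and 75.3 CPM with circ siRNA and 77.3, 96.9 and 102 CPM with control siRNA (log2 fold change -0.05). PSAP had 2230, 2265 and 2319 CPM with circ siRNA and 1946, 2123 and 2182 CPM with control siRNA, again without overlap, and PSAP differed by 0.12 on the log2 scale (95% interval -0.15 to 0.40). GRN had 1634, 1713 and 1366 CPM with circ siRNA and 1097, 1480 and 1550 CPM with control siRNA, giving a log2 fold change of 0.19 (95% interval -0.20 to 0.58). NPC1, the membrane protein that exports cholesterol from the lysosome, had 79.3, 73.4 and 90.4 CPM with circ siRNA and 83.0, 59.5 and 62.5 CPM with control siRNA (log2 fold change 0.25, 95% interval -0.12 to 0.61). NPC1 was called higher by edgeR without circ library 3 and control library 1 (log2 fold change 0.33, adjusted p = 0.0206). Its soluble partner NPC2 and the acid lipase LIPA had log2 fold changes of -0.07 and 0.04.

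TFEB and TFE3 had log2 fold changes of opposite sign, and neither was called. TFEB had 90.7, 103 and 64.2 CPM with circ siRNA and 82.2, 126 and 117 CPM with control siRNA, giving a log2 fold change of -0.33 (SE 0.22, 95% interval -0.83 to 0.16; edgeR adjusted p = 0.870). The groups overlapped through control library 1, and without that library and circ library 3 edgeR called TFEB lower (log2 fold change -0.32, adjusted p = 0.0223). TFE3 had 209, 187 and 143 CPM with circ siRNA and 175, 166 and 172 CPM with control siRNA, giving a log2 fold change of 0.07 (95% interval -0.27 to 0.42). Per length, TFE3 stood above TFEB in both groups, with means of 42.9 and 15.3 FPKM with circ siRNA and 40.3 and 18.9 FPKM with control siRNA.

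The V-ATPase was transcribed from 1 main paralog for most subunits that have several, in both groups alike. For the V0 subunit a, TCIRG1, the paralog known from osteoclasts and macrophages and named outside the ATP6 scheme, made up 97.3%, 97.4% and 95.6% of the summed FPKM of its 4 paralogs with circ siRNA and 96.4%, 97.2% and 97.5% with control siRNA. ATP6V0A1 made up 2.12% to 3.53% over the 6 libraries and ATP6V0A2 0.406% to 0.879%, while ATP6V0A4, known from kidney, had 1 count in all. ATP6V0D1 held 91.5% to 94.2% of the subunit d level, and ATP6V0D2, known from osteoclasts, held 5.76% to 8.50%. ATP6V0E1, ATP6V1B2, ATP6V1E1 and ATP6V1G1 each held at least 99.1% of their subunit, and ATP6V1C1 92.4% to 96.1%. ATP6V1G3 had no count in any library. That allows up to 0.179 to 0.203 CPM per library (3 counts of the library total without TMM scaling, counting error only). The shares of circ and control libraries overlapped for every paralog. On raw counts, not divided by length, 11 of 17 mean shares moved by more than the SD of the 6 libraries, among them those of TCIRG1 (89.2% to 93.7% over the libraries) and ATP6V0D1 (96.8% to 97.8%), and the order of paralogs within V0a, V0d and V1C was as it was per length.

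No V0 or V1 subunit gene was called by edgeR in the fit of all 6 libraries. Over the 8 tested V0 genes the median log2 fold change was -0.05, with 3 positive and 5 negative values. Over the 12 tested genes named ATP6V1 the median was 0.09, with 7 positive and 5 negative values. These 12 include ATP6V1FNB (0.49), which is not a subunit. ATP6V0B, a proteolipid subunit and the most abundant gene named ATP6 at a mean of 205 FPKM, had 671, 747 and 425 CPM with circ siRNA and 509, 875 and 798 CPM with control siRNA (log2 fold change -0.24, 95% interval -0.84 to 0.35). ATP6V0E1 had 244, 262 and 161 CPM with circ siRNA and 187, 308 and 284 CPM with control siRNA (log2 fold change -0.23, 95% interval -0.77 to 0.32). In both, circ library 3 and control library 1 held the lowest values. ATP6V0A2 had 21.6, 20.7 and 25.1 CPM with circ siRNA and 23.2, 19.2 and 18.5 CPM with control siRNA (log2 fold change 0.14), and ATP6V0C, at under 1 CPM in all libraries, had 0.68 with an interval from -0.42 to 1.78.

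In the V1 sector, ATP6V1A, the subunit that hydrolyses ATP, had 65.2, 67.4 and 73.3 CPM with circ siRNA and 69.0, 57.6 and 59.4 CPM with control siRNA (log2 fold change 0.15, 95% interval -0.14 to 0.43). ATP6V1C1, which helps to join V1 to V0, had 129, 126 and 98.5 CPM with circ siRNA and 108, 105 and 106 CPM with control siRNA (log2 fold change 0.14, 95% interval -0.16 to 0.45). Without circ library 3 and control library 1 edgeR called ATP6V1C1 higher (log2 fold change 0.27, adjusted p = 0.0264). ATP6V1F, part of the central stalk, had 127, 140 and 83.7 CPM with circ siRNA and 87.3, 168 and 146 CPM with control siRNA (log2 fold change -0.20, 95% interval -0.81 to 0.42), and exons of KCP on the opposite strand cover 23.7% of its exonic bases. ATP6V1E1, of the outer stalk, had 227, 247 and 165 CPM with circ siRNA and 178, 258 and 237 CPM with control siRNA (log2 fold change -0.08). Per length, the main V1 genes ranged from 12.8 FPKM for ATP6V1A to 163 FPKM for ATP6V1F as means over the 6 libraries.

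The accessory genes help to assemble the pump. ATP6AP2, also known as the prorenin receptor, had 272, 278 and 209 CPM with circ siRNA and 285, 307 and 298 CPM with control siRNA. Every circ value lay below every control value. ATP6AP2 differed by -0.23 on the log2 scale (SE 0.14, 95% interval -0.55 to 0.09; edgeR adjusted p = 0.864). ATP6AP1 had 551, 552 and 478 CPM with circ siRNA and 537, 573 and 588 CPM with control siRNA (log2 fold change -0.10), and ATP6AP1L, at no more than 2.59 CPM with circ siRNA and 2.36 CPM with control siRNA, had 0.33 (95% interval -0.41 to 1.07).

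ATP6V1FNB, which no pump sector contains, had the smallest p among the genes taken by the ATP6 name rule. It lies on chromosome 7, 128866330 to 128872047 (GRCh38, plus strand), 482 bases beyond the end of ATP6V1F. It had 38.1, 40.6 and 38.0 CPM with circ siRNA and 22.4, 30.8 and 29.8 CPM with control siRNA, without overlap. Its log2 fold change was 0.49 (SE 0.15, 95% interval 0.15 to 0.84), with an adjusted p of 0.581 in edgeR and 0.335 in DESeq2. Without circ library 3 and control library 1 edgeR called it higher (log2 fold change 0.38, adjusted p = 0.0199). Its whole span lies inside KCP on the opposite strand, although the exons of the 2 genes do not overlap in GENCODE 29. KCP had 69.4, 67.9 and 76.1 CPM with circ siRNA and 57.0, 45.9 and 48.2 CPM with control siRNA, giving a log2 fold change of 0.50 (SE 0.13, edgeR adjusted p = 0.491). The use of strand in counting is not given in the sources used here, so reads of unspliced KCP and of ATP6V1FNB cannot be told apart.

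Many members had low values in both circ library 3 and control library 1. Of the 50 tested members, 28 lay below their 6-library mean log2 CPM in both of these libraries (56%) and 7 above it in both (14%), against 32.5% and 34.8% of all genes. The median deviation from that mean was 0.08, 0.12 and -0.18 in circ libraries 1 to 3 and -0.18, 0.08 and 0.07 in control libraries 1 to 3, while over all genes it was between -0.01 and 0.01. For the 10 cathepsins it was 0.10, 0.21 and -0.36 with circ siRNA and -0.27, 0.16 and 0.17 with control siRNA. Over the 5 lipid-handling genes the median was 0.10, 0.06 and 0.09 with circ siRNA and -0.16, -0.03 and 0.01 with control siRNA, but they were not alike in circ library 3, where NPC2 was at -0.45 and NPC1 at 0.29. Across genes, which are not replicates and share each library, the deviation of all genes tested rose with gene length in circ library 3 and control library 1 (Spearman's rho 0.39 and 0.47), and over the members rho was 0.25 and 0.38. The part of gene length in the members' values was not tested beyond the fit with length offsets, in which edgeR again called 0 members, against 1 gene (0.00802%) higher and 5 genes (0.0401%) lower. Without circ library 3 and control library 1, edgeR called 3 members higher (ATP6V1C1, ATP6V1FNB and NPC1) and 3 lower (CTSW, CTSD and TFEB). That is 12% of the members, against 7.38% of genes higher and 7.43% lower (14.8% together). In the same fit an unadjusted p under 0.05 in edgeR was found for 11 of 50 members higher and 8 of 50 lower, against 14.5% and 15.6% of all genes. Groups did not overlap for 20 of 50 higher and 14 of 50 lower, against 29.2% and 30.3% of all genes. Some log2 fold changes there were over 1.5 times larger or smaller than in the fit of all 6 libraries, or turned sign. They include those of ATP6V0C (0.12), ATP6AP1L (0.13), ATP6AP2 (-0.13), CTSK (0.15), IFI30 (0.52), LGMN (-0.02), TFE3 (0.23), MCOLN1 (0.21) and PSAP (0.07). This is a ratio of log2 fold changes, most of them near 0, and not of levels.

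**Figure D4:**
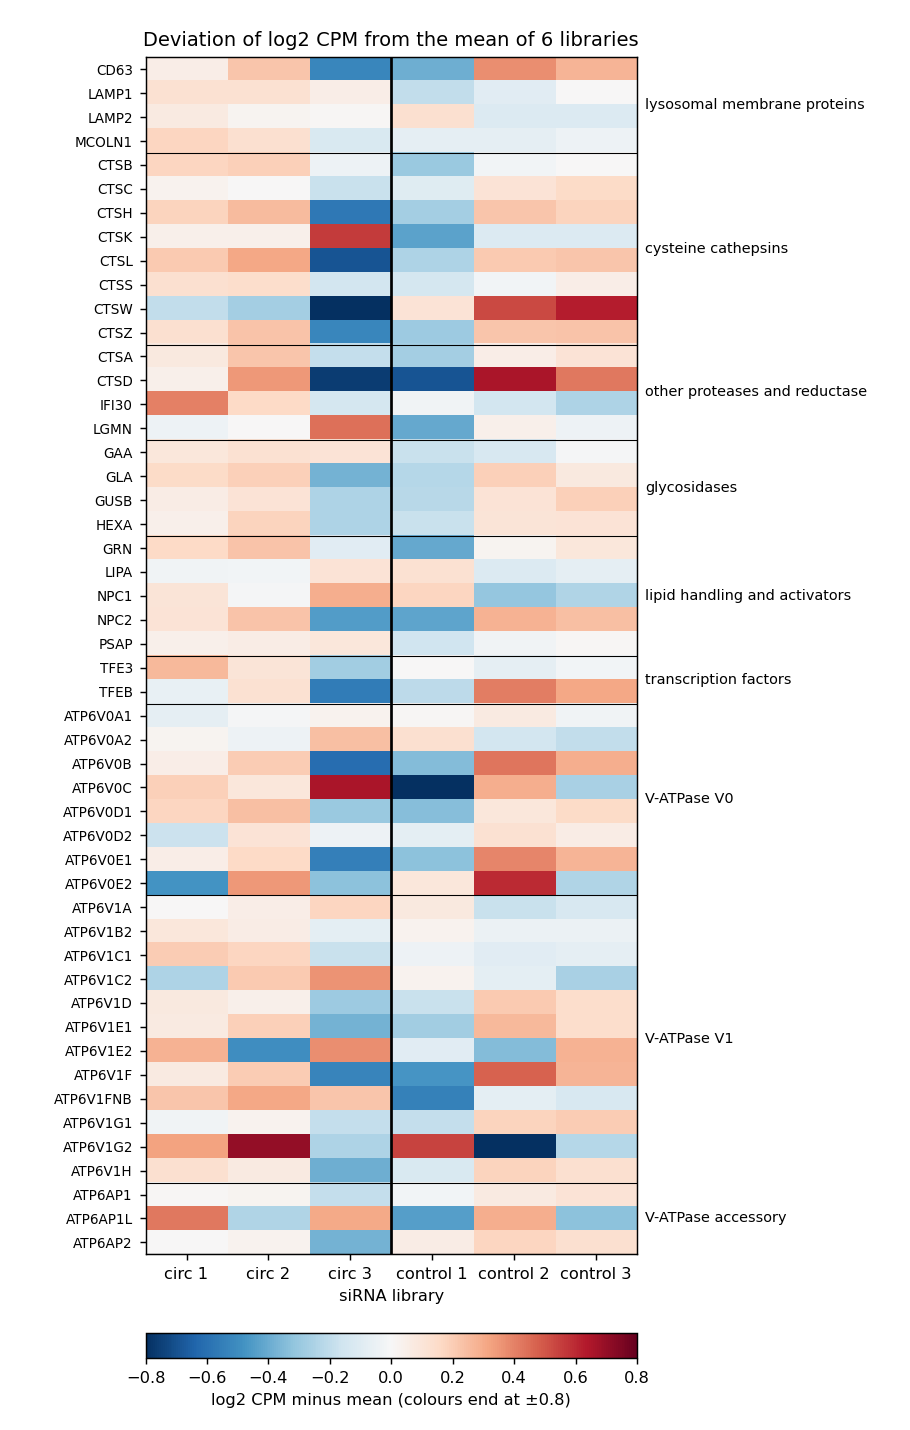
Deviation of log2 CPM from the mean of the 6 libraries for the 50 tested genes, by role, with the circ siRNA libraries left of the line and the control siRNA libraries right of it. Circ library 3 and control library 1 are blue for most rows, and CTSK and LGMN are red in circ library 3, where CTSD and CTSL are blue.

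Lysosomal genes outside the members were described by the counts and medians of 7 lists, and edgeR and DESeq2 each called 0 of their 155 tested genes in the fit of all 6 libraries. Without circ library 3 and control library 1, edgeR called 19 higher and 9 lower (18.1%), against 14.8% of all genes. Among them were SGSH (log2 fold change 0.91), DMXL2 (0.80), TPCN1 (0.38) and CLN8 (-0.53). In the fit of all 6 libraries an unadjusted p under 0.05 in edgeR was found for 3.77% of all genes higher and 2.68% lower. Log2 fold changes were positive for 48.8% of all genes. Of 33 other hydrolases 18 had positive and 15 negative log2 fold changes, with a median of 0.01 and an unadjusted p under 0.05 for 2 higher and 0 lower. Their smallest p belonged to SGSH, a heparan sulfate sulfohydrolase, with 8.80, 8.96 and 6.73 CPM with circ siRNA and 6.08, 5.26 and 4.21 CPM with control siRNA (log2 fold change 0.65, SE 0.20), and to ASAH1, the acid ceramidase, with 237, 234 and 226 CPM and 188, 190 and 200 CPM (0.27, SE 0.10). In both, every circ value was above every control value. Of 38 other membrane proteins 24 were positive and 14 negative (median 0.06, unadjusted p under 0.05 for 4 and 1), led by the endolysosomal channel gene TPCN1 (log2 fold change 0.56, SE 0.18) and CLN3 (0.50, SE 0.18). The 7 tested other cathepsins and cystatins had a median of -0.20, with 2 positive and 5 negative values, and the smallest p belonged to CTSO (0.27) and the inhibitor gene CST7 (0.47).

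The 12 other V-ATPase and assembly genes had a median of 0.06, with 6 positive and 6 negative values. TCIRG1 had 1324, 1410 and 871 CPM with circ siRNA and 1050, 1379 and 1422 CPM with control siRNA (log2 fold change -0.10, 95% interval -0.57 to 0.38). DMXL2, part of the complex that reassembles the pump, had 70.9, 62.7 and 63.4 CPM with circ siRNA and 59.1, 39.0 and 38.1 CPM with control siRNA (log2 fold change 0.53, SE 0.18), and MEAK7 had 0.30 (SE 0.13). Of 18 genes for sorting enzymes to the lysosome 11 were positive and 7 negative, and the smallest p belonged to CLN8, a carrier of newly made enzymes, with 12.8, 12.3 and 11.2 CPM with circ siRNA and 15.9, 17.9 and 18.5 CPM with control siRNA (log2 fold change -0.53, SE 0.14). GNPTAB, which starts the mannose 6-phosphate tag, had 0.37 (SE 0.27). Of 20 genes of nutrient signalling and TFEB control 8 were positive and 12 negative (median -0.01), with RRAGD, a Rag GTPase, at 0.40 (SE 0.17) and MITF, a relative of TFEB, at 0.45 (SE 0.22). The 27 genes of lysosome fusion and autophagy had 14 positive and 13 negative values (median 0.00), with GABARAPL1 at 0.31 (SE 0.13) and VPS39 at 0.20 (SE 0.11).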

How the data were processed

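The submitters' processing notes name CASAVA, cutadapt, HISAT2 and GRCh38. Tool versions, the counter, its strand setting and the annotation are given neither in those notes nor in the labels. For each gene and library the authors deposited a raw read count and an FPKM value. The deposited FPKM equals the count divided by gene length and library total. It was used to compare levels between genes and for the shares of paralogs. Differences between the groups on this scale were not tested.

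Counts of all 19976 genes were fitted with edgeR 4.0.16 (R 4.3.3; TMM, filterByExpr at a minimum count of 10, quasi-likelihood F test, two-sided, group as the only term, Benjamini-Hochberg over 12469 genes). Standard errors and 95% intervals came from the F statistic, and log2 CPM used a prior count of 2. DESeq2 1.42.0 and limma-voom (limma 3.58.1) were alternatives, as were other scalings, filters, a threshold of 0.1, a replicate block, left-out libraries and offsets for each library's trend with gene length (natural spline, 4 degrees of freedom). The scripts were tested on simulated data. No 2 libraries of a group agreed within sampling noise (chi-square per gene at least 5.93). Exon overlap came from GENCODE 29, to which 19914 identifiers and all 55 members matched.

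The members and lists were chosen with earlier results of these data known. Values per library are given for TFEB, TFE3 and MCOLN1, for members called by edgeR or DESeq2, and in each role for the 3 smallest p and the 2 highest levels. In each other list the 2 smallest p are named. LAMP2, KCP, TCIRG1, CTSS, CTSC, CTSH, NPC2, LIPA and the near-0 genes were added after their values were seen.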

Additional observations from a re-analysis of the deposited data

How the results depend on the processing

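Genes called higher over the whole table numbered 0 in edgeR, 3 at an adjusted p under 0.1, 60 with DESeq2, 1 with gene length offsets and 919 without circ library 3 and control library 1. Genes called lower numbered 1, and 4, 23, 5 and 926 in the same fits, 2 without the filter, and 0 with library totals alone, with limma-voom, with the replicate block, with the block and length offsets, and with any 1 library left out. Members called lower numbered 0, 1 with DESeq2 and 3 without circ library 3 and control library 1, where members called higher also numbered 3. In that fit 11 of 50 members higher and 8 of 50 lower had an unadjusted p under 0.05 (14.5% and 15.6% of all genes). Groups did not overlap for 20 of 50 and 14 of 50 (29.2% and 30.3% of all genes). That fit leaves out the pair that stood apart on the first principal component, and its counts do not measure a larger effect. With 1 library left out, 1 to 2 of 50 members had an unadjusted p under 0.05 in each direction (2.13% to 9.83% of all genes higher, 1.25% to 9.99% lower). Groups did not overlap for 5 to 14 of 50 members higher and 2 to 14 of 50 lower (8.52% to 22% and 8.03% to 23.2% of all genes). The median log2 fold change of all members and of each role moved by less than the spread between libraries in every alternative run, but with 1 library left out the sign turned for all members (-0.04 to 0.10), cysteine cathepsins (-0.19 to 0.16), glycosidases (-0.11 to 0.12) and transcription factors (-0.22 to 0.02).

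The replicate numbers gave no clear pairing, since same-numbered libraries' deviations correlated at -0.17, 0.46 and -0.37. With the replicate block 0 members were called, and CTSW had a log2 fold change of -0.85 (edgeR adjusted p = 0.806).

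Log2 fold changes near 0 changed sign in places, and the cause was not tested. GLA had 0.00 with library totals alone, 0.03 without circ library 3 and control library 1, 0.06 with length offsets and 0.05 with the block and offsets. CTSL had 0.06 without those 2 libraries and 0.02 with length offsets, CTSZ had 0.00 with length offsets, and LGMN had -0.02 without those 2 libraries. With 1 library left out the ranges reached or crossed 0 for, among others, GLA (-0.13 to 0.14), CTSL (-0.24 to 0.19), CTSZ (-0.24 to 0.11), CTSA (-0.03 to 0.18), TFE3 (-0.05 to 0.21), CD63 (-0.37 to 0.02), GUSB (-0.16 to 0.05), ATP6V1E1 (-0.22 to 0.08) and ATP6V1F (-0.42 to 0.00).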

Other observations

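The osteoclast genes OCSTAMP and DCSTAMP had log2 fold changes of the opposite sign to CTSK. OCSTAMP, needed for cell fusion, had 27.2, 33.0 and 26.1 CPM with circ siRNA and 56.5, 67.1 and 62.2 CPM with control siRNA (log2 fold change -1.11; DESeq2 adjusted p = 7.4e-08, edgeR adjusted p = 0.0737). DCSTAMP, its relative, had 47.8, 48.5 and 34.2 CPM with circ siRNA and 71.4, 73.8 and 74.9 CPM with control siRNA (log2 fold change -0.75; DESeq2 adjusted p = 0.0116, edgeR adjusted p = 0.365). Of 8 tested osteoclast markers, CTSK among them, DESeq2 called these 2 lower and 0 higher, against 0.184% and 0.481% of all genes. Among these markers edgeR called 0, against 0.00802% of all genes lower and 0% higher. The other 6 had positive log2 fold changes, among them NFATC1, a transcription factor of osteoclasts, with 57.8, 63.7 and 67.9 CPM with circ siRNA and 53.7, 48.0 and 51.9 CPM with control siRNA (0.30; edgeR adjusted p = 0.724), OSCAR (0.20), ACP5 (0.12), ITGB3 (0.08) and MMP9 (0.05).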
